A study of Mus musculus with 8 samples.

Results

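The 37 TGF-beta and BMP pathway genes described here comprised 10 ligands, 11 receptors, 8 Smads, 4 secreted antagonists and 4 latent TGF-beta binding proteins, out of 21887 protein-coding genes in the RefSeq table used. Peaks of the chromatin remodeller CHD4 from 4 ChIP-seq libraries were merged into sites wherever they shared at least 1 bp, and a site belonged to a gene when it overlapped the gene body or the 10 kb on either side. This gave 611 sites at the 37 genes, out of 121267 sites in the genome and 96605 at protein-coding genes. No site belonged to more than 1 of the 37 genes, but 76 of the 611 also lay within 10 kb of another protein-coding gene. Sites were found at 36 genes and at 34 in both control libraries; Bmp7 and Bmpr1b had no site shared by the controls, and Grem1 had none in any library. The genes ranged from 1.92 to 387 kb in length, so site counts of different genes are not levels of binding.

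CHD4 is the ATPase of the nucleosome remodelling and deacetylase (NuRD) complex. Atrial cardiomyocytes depend on the T-box factor TBX5 for their identity. The study immunoprecipitated CHD4 from whole mouse atria, right and left, of TBX5flox/flox animals that received an AAV9 virus at postnatal day 2. Control animals received AAV9:Nppa-EGFP and TBX5 KO animals AAV9:Nppa-Cre; the Nppa promoter is active in atrial cardiomyocytes, so other cells of the tissue, which the labels call mixed, were not the target of the deletion. There were 2 libraries per group, and nothing states that they came from separate animals, so any p-value measures only the spread between these libraries. The age at collection was not given in the sources used here. The groups were taken from the sample titles. The genotype and treatment entries of the same libraries give the opposite assignment, and the treatment text describes the Cre group as a CHD4 knockout. Directions given here therefore hold only if the titles are right. Peak lists hold no measure of the Tbx5 deletion or of expression, so neither the deletion nor the tissue could be checked against marker levels.

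The libraries differed as a whole. The controls had 99924 and 91520 peaks and the TBX5 KO libraries 61173 and 69557. At sites called in all 4 libraries, the median pileup over the library background was 6.23 and 5.84 in the controls and 3.84 and 3.80 in TBX5 KO. The median pileup itself was 63 and 60 against 41 and 51, and the background was 10.1 and 10.3 against 10.7 and 13.4, so both parts of the ratio separated the groups. Pileup here is the number of stacked fragments at a peak's summit, recovered from the fold enrichment and p-value that the authors' peak caller gave. The enrichment gap separates the libraries exactly as the groups do, so list depth and genotype cannot be told apart, and counts of sites missing from TBX5 KO are therefore given beside the same share over all genes. In whole tissue, fewer cells carrying a peak and less signal per cell cannot be told apart either.

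Ligands of this family are secreted dimers. TGF-beta ligands are held inactive in the matrix by latent binding proteins, and antagonists such as noggin and chordin bind BMPs before they reach a receptor. An active ligand joins type II and type I receptor kinases; the type I receptor phosphorylates Smad2 and Smad3 for TGF-beta and activin, or Smad1, Smad5 and Smad9 for BMP, and these enter the nucleus with Smad4, while Smad6 and Smad7 inhibit the pathway. In the heart, BMP signalling acts in atrioventricular canal and valve formation, and TGF-beta signalling is best known for activating fibroblasts in fibrosis.

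Promoters of these genes were mostly held inside sites present in every library. The RefSeq promoter table had windows of 300 bases for 27 of the 37 genes, and 24 of the 27 (88.9%) lay in a site called in all 4 libraries, against 54.4% of 17492 protein-coding genes with a window. None of the 27 lay in a control-only site, that is, a site called in both controls and in neither TBX5 KO library; a count of 0 of 27 allows up to 11.1%, and the share over all genes was 1.17%. The 3 genes whose windows lay in no site were Bmp5, Bmpr1b and Grem1. For each role, the promoter in the strongest site called in all 4 libraries is printed from RefSeq (GRCm38.p6, the mm10 assembly), because these are the sequences at which CHD4 was found in every library. Each run of 280 bases goes 5′ to 3′ on the gene's strand, from 250 bases before an annotated transcript start to 30 after. For Chrd (chr16:20731425-20742384) and Ltbp4 (chr7:27305140-27339720), that start lies inside the gene and not at its outer end. Capitals mark matches on either strand to 6 motifs.
Tgfb1: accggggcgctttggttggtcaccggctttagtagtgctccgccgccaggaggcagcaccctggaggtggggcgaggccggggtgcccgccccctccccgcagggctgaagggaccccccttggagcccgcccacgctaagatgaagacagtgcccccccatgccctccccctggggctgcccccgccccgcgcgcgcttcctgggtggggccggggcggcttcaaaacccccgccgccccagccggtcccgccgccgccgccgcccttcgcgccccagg
Tgfbr1: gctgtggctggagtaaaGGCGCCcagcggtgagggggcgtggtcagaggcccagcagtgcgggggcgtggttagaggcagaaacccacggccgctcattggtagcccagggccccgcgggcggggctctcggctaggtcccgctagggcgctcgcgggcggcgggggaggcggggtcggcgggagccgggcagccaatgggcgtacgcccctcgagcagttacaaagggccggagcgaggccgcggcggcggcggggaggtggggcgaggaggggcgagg
Smad6: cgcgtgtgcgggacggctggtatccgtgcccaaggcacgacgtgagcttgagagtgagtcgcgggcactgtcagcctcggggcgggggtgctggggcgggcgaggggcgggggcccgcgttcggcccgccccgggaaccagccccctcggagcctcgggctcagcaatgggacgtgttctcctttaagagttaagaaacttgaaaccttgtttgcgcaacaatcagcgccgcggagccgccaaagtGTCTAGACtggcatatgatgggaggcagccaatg
Chrd: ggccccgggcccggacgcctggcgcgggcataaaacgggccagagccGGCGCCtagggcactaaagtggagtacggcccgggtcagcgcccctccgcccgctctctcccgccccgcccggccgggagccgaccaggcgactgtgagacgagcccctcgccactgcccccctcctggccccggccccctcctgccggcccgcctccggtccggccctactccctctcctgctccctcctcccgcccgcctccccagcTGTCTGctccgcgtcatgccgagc
Ltbp4: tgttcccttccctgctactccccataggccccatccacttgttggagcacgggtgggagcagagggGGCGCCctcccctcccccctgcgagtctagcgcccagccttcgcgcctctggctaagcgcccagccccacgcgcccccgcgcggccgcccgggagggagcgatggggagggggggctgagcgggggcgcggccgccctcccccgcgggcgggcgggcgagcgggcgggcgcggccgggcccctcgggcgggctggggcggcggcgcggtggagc

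The 5 windows are chr7:25686752-25687031 (Tgfb1, plus strand), chr4:47352972-47353251 (Tgfbr1, plus), chr9:64022030-64022309 (Smad6, minus), chr16:20732877-20733156 (Chrd, plus) and chr7:27333619-27333898 (Ltbp4, minus). Motifs searched were the T-box element AGGTGTGA and its shorter core TCACACC, which overlap on opposite strands, the GATA element AGATAA, the palindromic Smad element GTCTAGAC, the Smad element CAGACA and the GC-rich Smad element GGCGCC. The Smad6 window held GTCTAGAC at positions 247 to 254, counted from its first base; 0.226% of 21263 protein-coding promoter windows held that motif. Tgfbr1, Chrd and Ltbp4 each held GGCGCC, which 15.3% of windows held, and Chrd also held CAGACA on its minus strand at positions 257 to 262. The Tgfb1 window held none of the 6. Across the 35 windows of these genes, some of which had more than 1 window, GGCGCC was in 11 (31.4%) and CAGACA in 7 (against 18.9%). AGATAA was in 2 (5.71%, against 9.65%). Neither T-box motif was in any, against 1.15% and 3.68% of all windows. In 35 windows, shares this low can give a count of 0, so no lack of T-box motifs can be read. Motif matches describe letters in these windows and not bound sites. The printed promoters had a GC content of 66.3% to 80.3%, above the median of 56.3% over all windows.

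All 5 printed promoters carried a peak in each library. Pileups given for a site are each library's highest within it, and that summit need not lie on the promoter window. The site over the Smad6 promoter, chr9:64015894-64026763, had the highest rank of the 5, with pileups of 262 and 228 in the controls and 140 and 164 in TBX5 KO. In the site over the Tgfbr1 promoter the values were 248 and 182 against 134 and 178. In the site over the Ltbp4 promoter they were 218 and 197 against 123 and 148. For these 3 sites, both TBX5 KO values lay below both control values before any scaling. After division by background, this was so at 88.7% of sites called in all 4 libraries over all genes. In the site over the Tgfb1 promoter, 121 and 98 stood against 84 and 98, so the groups met at 98. In the site over the Chrd promoter, 34 and 39 stood against 35 and 49, and the groups overlapped.

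Of the 321 sites at these genes that both controls shared, 48 were control-only, a share of 15% (95% Wilson interval 11.5 to 19.3, counting error only). Over all 53426 such sites at protein-coding genes, 12964 were control-only, a share of 24.3%. The sites of these genes were not stronger than average, since their median control rank was 56.7 against 62.0 for all genes. Control rank is a site's percentile by −log10 p within each control list, averaged over both lists, so that 100 is the strongest. They also lay less often within 1 kb of a gene end, 16.8% against 25.6%. Giving each site the control-only share of all sites of like control rank (10 equal groups) and the same place would have made 88.0 of the 321 control-only (27.4%). Inside genes, 41 of 236 sites were control-only (17.4%, against 31.1% over all genes). Near gene ends, the count was 2 of 54 (3.70%, against 7.22%). Elsewhere, it was 5 of 31 (16.1%, against 24.4%). No test was made of these shares, because sites of 1 gene are not replicates.

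Another 203 of the 321 sites were called in all 4 libraries (63.2%, against 57.2% over all genes). The other 70 were called in 1 TBX5 KO library alone, 47 of them in replicate 2, the longer list. Over all genes, 9899 of 53426 sites were called in 1 TBX5 KO library alone, 6668 of them in replicate 2. The 48 control-only sites were weak in the controls. Their pileups ran from 23 to 53 in control 1, with a median of 31.0, and from 24 to 53 in control 2, with a median of 31.5. Sites called in all 4 libraries had medians of 55 and 50 there. The weakest peaks called at these genes in TBX5 KO had pileups of 22 and 27. The authors' fold enrichment at the control-only sites lay between 1.80 and 3.99.

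**Figure D1:**
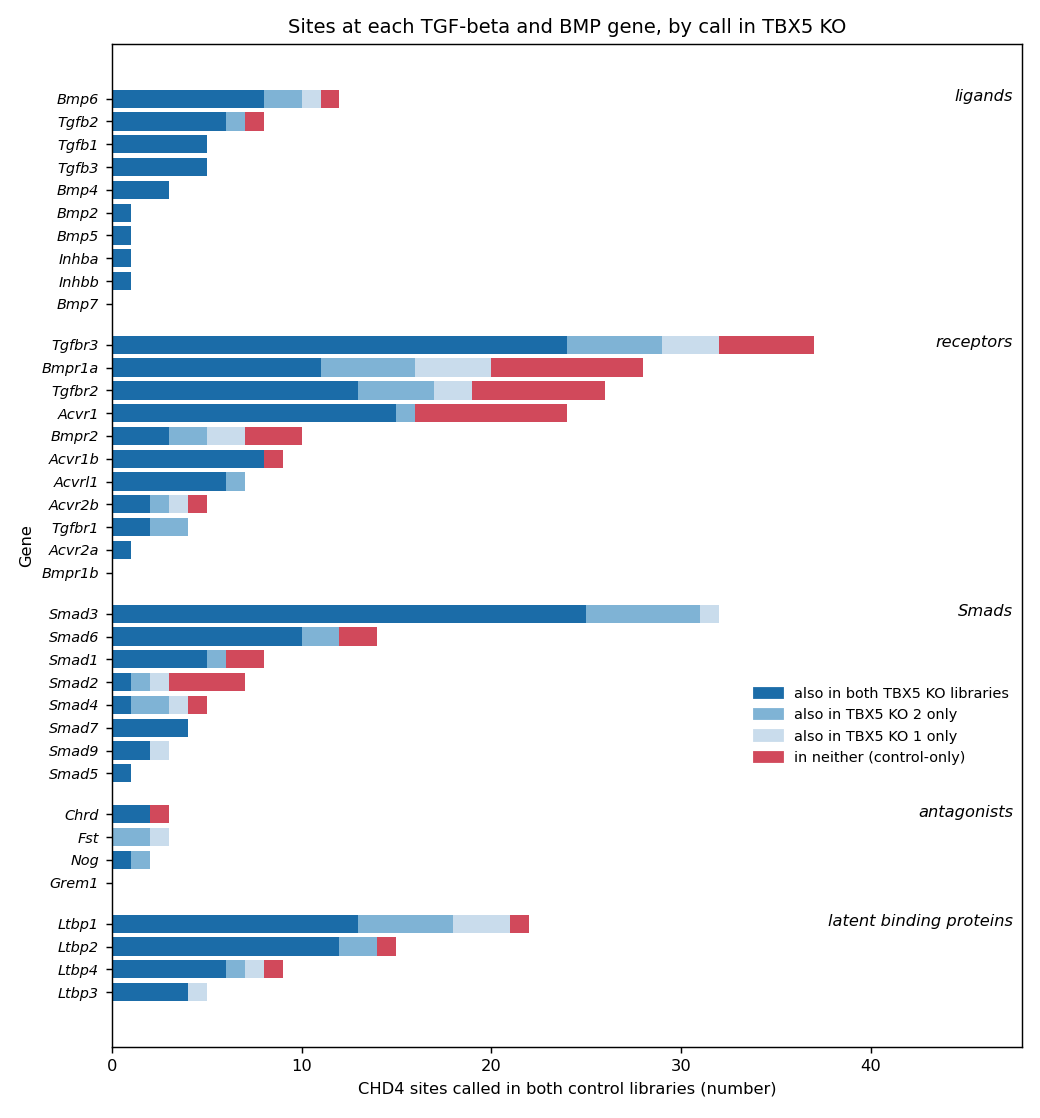
Number of CHD4 sites called in both control libraries at each of the 37 genes, grouped by role; bar segments show whether a site was also called in both TBX5 KO libraries, in 1 of them, or in neither. Smad3 has 32 sites and no control-only segment, while Bmpr1a and Acvr1 have 8 control-only sites each.

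Most ligand sites that the controls shared were called in TBX5 KO as well. Ligand genes had 88 sites in any library, of which the controls shared 37; 31 of the 37 were called in all 4 libraries and 2 were control-only (5.41%, interval 1.5 to 17.7; 8.23 expected from rank and place). The ligand share was 15.2% with 50 kb on each side of the genes and 0% with lists of equal length. TGF-beta ligands had 1 control-only site of 18 and BMP ligands 1 of 17. Tgfb1, the main fibrogenic isoform, and Tgfb3 had 5 sites each that the controls shared, out of 7 and 11 in any library, and those 5 were called in all 4 libraries. Bmp4 had 3 such sites, and Bmp2, Bmp5 and the activin subunits Inhba and Inhbb 1 each, again with no control-only site.

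Bmp6, a BMP made by endothelial cells, lies at chr13:38345716-38500314 and held the most ligand sites. Its peaks numbered 22 and 19 in the controls and 19 and 22 in TBX5 KO, so the groups covered the same range although the TBX5 KO lists are shorter. Of its 12 sites shared by the controls, 8 were in all 4 libraries and 1 was control-only, with 3.65 expected. That site, chr13:38462171-38462811, is intragenic, 116775 bp from the gene's start, and had pileups of 32 and 24. Bmp6 also had a site called only in TBX5 KO, described below with the others of its kind.

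Tgfb2, the isoform with the clearest role in cardiac valve development, lies at chr1:186622787-186709697. Its peaks numbered 14 and 12 in the controls and 15 and 17 in TBX5 KO, with both TBX5 KO values above both control values. Counted as merged sites, however, it had 13 and 11 in the controls and 10 and 15 in TBX5 KO, and the groups overlapped. Of 8 sites shared by the controls, 6 were in all 4 libraries and 1 was control-only, chr1:186698858-186699306, with pileups of 29 and 27. Bmp7 had 1 peak in all, in TBX5 KO 2.

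The only Bmp5 site shared by the controls lay 9.28 kb past the gene. At chr9:75909598-75911336 the pileups were 118 and 116 in the controls and 36 and 66 in TBX5 KO. Both TBX5 KO values were below both controls. For pileup over background this was so at 23 of the 31 ligand sites called in all 4 libraries (74.2%, against 88.7% over all genes). Pileup over background was then divided by each library's median over sites called in all 4 libraries. The values became 1.87 and 1.93 against 0.878 and 1.29, a log2 difference of -0.84, the lowest of the 203 sites. By this measure both TBX5 KO values were above both controls at 19 of the 31 ligand sites (61.3%, against 31.1% over all genes). This site was picked out after its values were seen.

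Receptor genes held most of the control-only sites. They had 33 of the 48, out of 151 receptor sites shared by the controls (21.9%, interval 16 to 29.1; 46.2 expected). The share was near the 24.3% over all genes, and the interval met that of the ligands between 16 and 17.7. Type I receptors had 17 of 72 (23.6%) and type II receptors 11 of 42 (26.2%). Bmpr1a, Acvr1 and Tgfbr2 together held 23 of the 33.

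Bmpr1a, the type I receptor for BMP2 and BMP4, lies at chr14:34411061-34503336. Peaks numbered 42 and 39 in the controls and 22 and 24 in TBX5 KO, and the groups did not overlap. The whole lists did not overlap either, with 99924 and 91520 peaks against 61173 and 69557. Of 28 sites shared by the controls, 11 were called in all 4 libraries and 8 were control-only, with 11 expected. The 8 sites had pileups of 29 to 42 in control 1 and 25 to 38 in control 2. Of these, 4 lay within 8.18 kb of the gene, chr14:34474144-34482327, together with 3 other sites, 2 of which had a TBX5 KO peak.

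Acvr1, a type I receptor for BMPs and activins also known as ALK2, lies at chr2:58446438-58566828. Its peaks numbered 34 in each control and 23 and 24 in TBX5 KO, again with no overlap, as for the whole lists. Of 24 sites shared by the controls, 15 were in all 4 libraries and 8 were control-only, close to the 8.12 expected. All 8 were inside the gene.

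Tgfbr3, or betaglycan, is a co-receptor that presents TGF-beta to its type II receptor, and lies at chr5:107106567-107289629. It had the most sites of any of the 37 genes, with peaks numbering 66 and 59 in the controls and 40 and 47 in TBX5 KO. Of 37 sites shared by the controls, 24 were in all 4 libraries and 5 were control-only, with 9.54 expected. The lists as a whole were shorter in TBX5 KO too, so a lower number of peaks at a gene does not by itself set that gene apart.

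Tgfbr2, the type II receptor for TGF-beta, held the strongest control-only site of the receptors. That site, chr9:116108439-116109266, lay inside the gene, 66510 bp from its start, at control rank 56.6, with pileups of 41 and 43. In the gene as a whole, 7 of 26 sites were control-only, against 9.22 expected, and 13 were in all 4 libraries. Among the other receptors, Bmpr2, the type II BMP receptor, had 3 control-only sites of 10, with 2.13 expected. The activin receptors Acvr1b (1 of 9) and Acvr2b (1 of 5) had 1 each. Tgfbr1 (of 4), Acvrl1, the endothelial receptor ALK1 (of 7), and Acvr2a (of 1) had none. Bmpr1b had 1 peak in every library but no site that the controls shared.

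**Figure D2:**
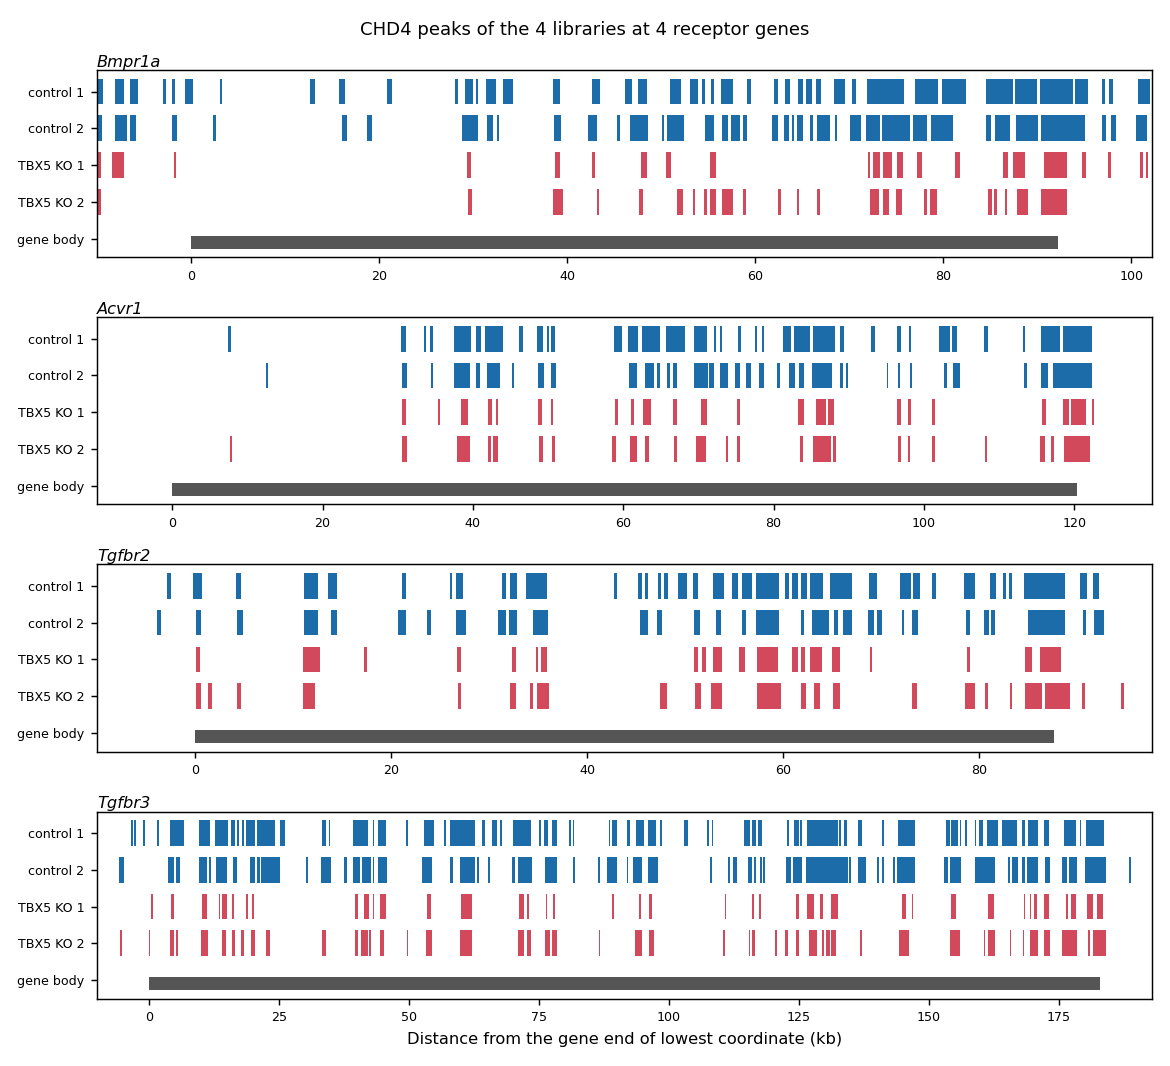
CHD4 peaks of each library (blue for control, red for TBX5 KO) along Bmpr1a, Acvr1, Tgfbr2 and Tgfbr3 with 10 kb on each side; the x axis is distance in kb from the gene end of lowest coordinate, and the grey bar is the gene body. Bmpr1a carries 42 and 39 peaks in the controls and 22 and 24 in TBX5 KO.

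The Smad genes showed the widest spread of patterns within a role. Of 74 sites shared by the controls, 49 were called in all 4 libraries and 9 were control-only (12.2%, interval 6.53 to 21.5; 17.5 expected). Receptor-regulated Smads had 6 of 51, and the inhibitory Smads 2 of 18. A Smad share below that over all genes depended on the threshold. With −log10 q of at least 5 it was 31.0% (18 of 58), above the 27.1% over all genes.

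Smad3, which carries TGF-beta and activin signals and lies at chr9:63646766-63757994, had no control-only site among 32 shared by the controls, with 7.07 expected. A count of 0 of 32 would allow up to 9.38% if the sites were independent, which sites of 1 gene are not. Its peaks numbered 44 and 43 in the controls and 34 and 41 in TBX5 KO, and 25 sites were in all 4 libraries. The other 7 were called in 1 TBX5 KO library. In the site at its promoter end, chr9:63753332-63760028, the highest pileups were 200 and 189 in the controls and 125 and 142 in TBX5 KO.

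Smad2, which acts beside Smad3 in the same branch, gave the opposite picture at far fewer sites. The gene lies at chr18:76241090-76311748, and its peaks numbered 13 and 11 in the controls and 5 and 2 in TBX5 KO. Of 7 sites shared by the controls, 4 were control-only, with 2.46 expected, and 1 was in all 4 libraries. The 4 lay together in 13.0 kb of the gene, chr18:76245887-76258851, with pileups of 31 to 42 in control 1 and 26 to 39 in control 2; of 2 other sites in that stretch, 1 had a TBX5 KO peak. With 7 sites, this difference from Smad3 is a description of 2 genes.

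Smad6, an inhibitory Smad induced by BMP signals, lies at chr9:63953076-64022085. Its peaks numbered 22 and 25 in the controls and 35 and 37 in TBX5 KO, the reverse of the list lengths. Counted as merged sites, however, it had 18 and 15 in the controls and 10 and 13 in TBX5 KO. Of 14 sites shared by the controls, 10 were in all 4 libraries and 2 were control-only, with 3.60 expected. Smad7, the other inhibitory Smad, was added after its values were seen. It had 5 and 9 peaks in the controls and 17 and 18 in TBX5 KO, of which 1 in TBX5 KO 2 lay in a site of its own; the others lay in 4 sites called in all 4 libraries.

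The gap between peaks and sites at Smad6 and Smad7 came from wide control peaks that matched several narrow ones in TBX5 KO. One Smad6 site of 36108 bp, chr9:63948115-63984222, held 5 and 8 peaks in the controls and 18 and 16 in TBX5 KO. Its widest peak was 17929 and 9177 bp in the controls and 3856 and 4891 bp in TBX5 KO. The bases under peaks were 34601 and 33055 against 23737 and 28981, so peak number and covered length differed in opposite directions. The Smad7 site of 33828 bp, chr18:75365314-75399141, held 2 and 6 peaks against 14 and 13, and 33265 and 31550 bases under peaks against 26711 and 27470. Among sites with a peak of at least 5 kb in both controls, a width chosen after the values were seen, these genes had 8. Both TBX5 KO libraries had more peaks than both controls in 4 of the 8, against 56.4% of 624 such sites over all genes. Fewer bases lay under peaks in both TBX5 KO libraries in 8 of 8, against 90.7%. The median ratio of covered bases was 0.818 here and 0.752 over all genes, so this splitting was common to broad sites.

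**Figure D3:**
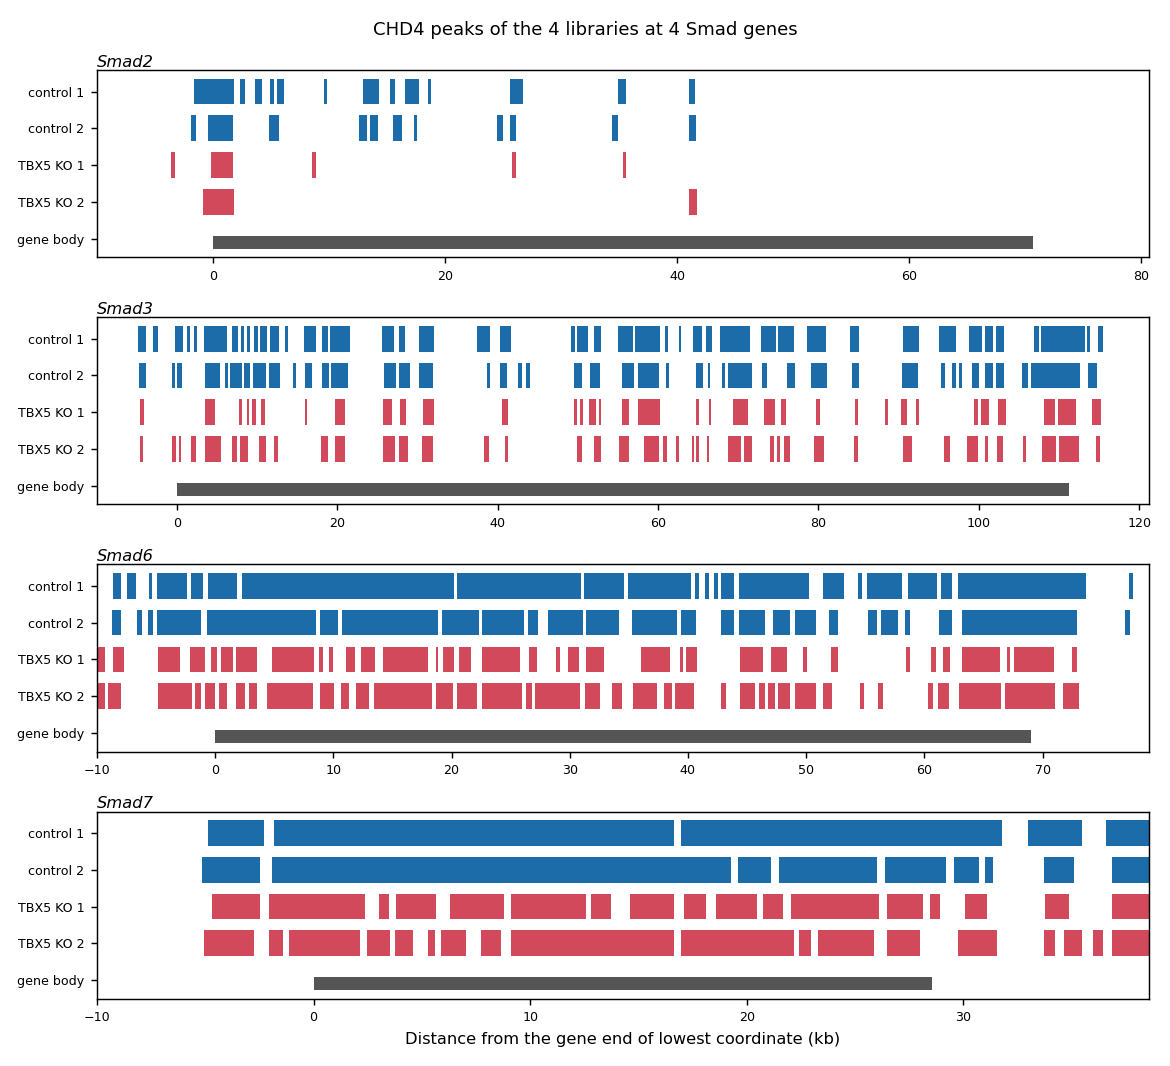
CHD4 peaks of each library (blue for control, red for TBX5 KO) along Smad2, Smad3, Smad6 and Smad7 with 10 kb on each side; the x axis is distance in kb from the gene end of lowest coordinate, and the grey bar is the gene body. Smad7 goes from 5 and 9 peaks in the controls to 17 and 18 in TBX5 KO over the same stretch, while Smad2 has 13 and 11 against 5 and 2.

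The strongest control-only site of the Smads was at Smad1, a BMP-regulated Smad. It lay at chr8:79389123-79389586, inside the gene and 10074 bp from its start, at control rank 50.3, with pileups of 35 and 40. Smad1 had 2 control-only sites of 8. Smad4, the shared partner Smad, had 1 of 5, and Smad5 (1 site) and Smad9 (3 sites) had none.

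Antagonist genes had too few sites for a share to be read. Of 8 sites shared by the controls, 1 was control-only (12.5%, interval 2.24 to 47.1; 2.41 expected) and 3 were in all 4 libraries. Chrd, which encodes chordin, lies at chr16:20731425-20742384, and its peaks numbered 4 and 3 in the controls and 2 in each TBX5 KO library. The control-only site, chr16:20726264-20727018, had pileups of 27 and 31, and also lay within 10 kb of Clcn2, Polr2h and Thpo. Fst, which encodes the activin-binding protein follistatin, lies at chr13:114452262-114458989 and had 4 and 3 peaks against 1 and 3. Each of its 3 sites shared by the controls was called in 1 TBX5 KO library, so none was control-only and none was in all 4. Nog had 2 sites, of which 1 was in all 4 libraries.

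Latent binding protein genes encode proteins of the extracellular matrix, and few of the sites that the controls shared there were control-only. Of 51 sites shared by the controls, 35 were in all 4 libraries and 3 were control-only (5.88%, interval 2.02 to 15.9; 13.7 expected). Ltbp1, at chr17:75005480-75392512, had 40 and 30 peaks in the controls and 27 and 30 in TBX5 KO, so the groups met at 30. Of its 22 sites shared by the controls, 13 were in all 4 libraries and 1 was control-only, with 6.0 expected. That site, chr17:75061652-75062320, was the strongest control-only site of this role, at control rank 43.0 with pileups of 33 and 34. Ltbp2, at chr12:84783212-84876558, had 20 and 18 peaks against 15 and 19, and 12 of 15 sites were in all 4 libraries, with 1 control-only. Ltbp4 had 1 control-only site of 9 and Ltbp3 none of 5.

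**Figure D4:**
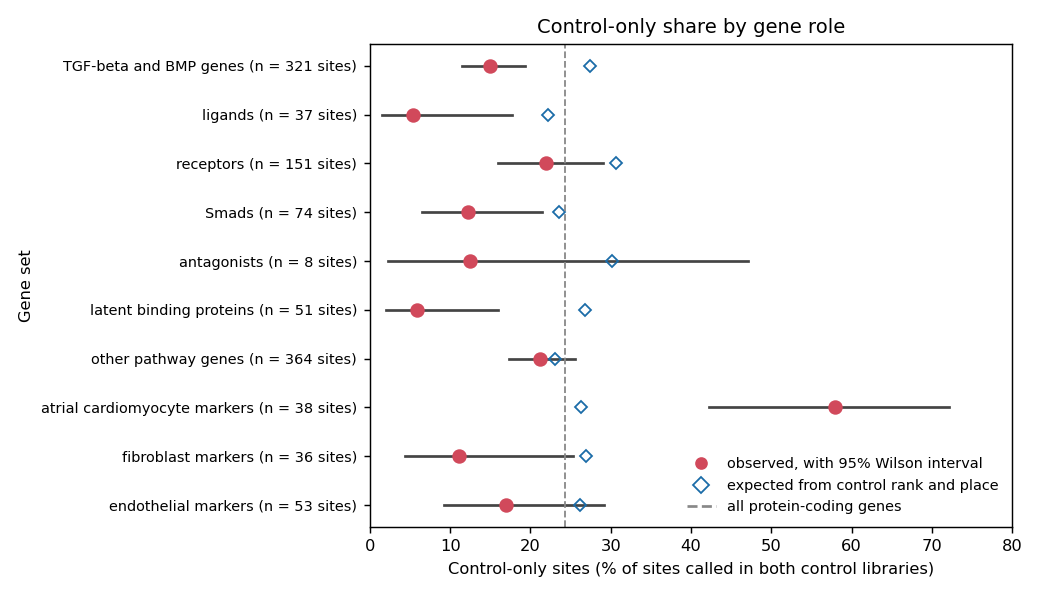
Control-only sites as a percentage of sites called in both controls (points, with 95% Wilson intervals as lines), for the 37 genes, each role, 71 other pathway genes and 3 cell type marker lists; open diamonds are the share expected from control rank and place, and the dashed line is the 24.3% over all protein-coding genes. Receptors stand at 21.9%, ligands at 5.41% and latent binding proteins at 5.88%. The smooth muscle and pericyte, leukocyte, neuronal and glial, and epicardial lists are not drawn.

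Sites present in both TBX5 KO lists but absent from both control lists numbered 6. They were 2.70% of the 222 sites shared by the TBX5 KO libraries, against 1.74% (567 of 32525) over all genes. Acvr1b, a type I activin receptor also known as ALK4, had 2 of them. At chr15:101178401-101178842 the pileups in TBX5 KO were 27 and 35, and at chr15:101212417-101212882 they were 31 and 52. Acvr1 had 1 at chr2:58547519-58547885, with 28 and 31. The others were at Bmp6 (chr13:38422867-38423481, 24 and 32), Ltbp1 (chr17:75020612-75021086, 24 and 32) and Tgfbr3 (chr5:107216964-107217641, 23 and 31). All but the second Acvr1b site lay below the median pileup of called sites at these genes in both libraries, 34 and 39. A control peak lay near each one, with gaps of 254 bp at Bmp6, 362 at Tgfbr3, 431 and 841 at Acvr1b, 512 at Acvr1 and 1604 at Ltbp1. The Smads had none of 49, which would allow up to 6.12% if the sites were independent.

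As a share of each library's own list, these genes took more of the TBX5 KO peaks. They held 506 and 465 peaks in the controls and 390 and 429 in TBX5 KO, or 5.06 and 5.08 per 1000 peaks against 6.38 and 6.17. The means were 5.07 ± 0.01 and 6.27 ± 0.15 per 1000 (SD, n = 2 libraries each), and the groups did not overlap. A two-sided exact permutation test over the libraries gave p = 0.33, the smallest that 2 against 2 can give, and 0.400 after Benjamini-Hochberg adjustment over 6 comparisons. Ligands stood at 0.63 ± 0.04 and 1.04 ± 0.06, the largest ratio of the 5 roles (1.64). Smads stood at 1.20 ± 0.07 and 1.72 ± 0.07, and latent binding proteins at 0.77 ± 0.03 and 0.96 ± 0.01. For receptors the means were 2.37 ± 0.01 and 2.48 ± 0.03, a ratio of 1.05. Each of these 4 also had p = 0.33 by the exact permutation test. Antagonists, at 0.09 ± 0.01 and 0.08 ± 0.02, overlapped, with p = 1.0 by the same exact test. Split peaks raise such counts, so sites and covered length are given too. Merged sites at these genes per 1000 sites called were 4.85 and 4.81 in the controls and 5.47 and 5.68 in TBX5 KO. Bases under peaks were 6.30 and 6.28 kb per 1000 kb in the controls and 7.02 and 7.11 in TBX5 KO. For both measures the groups did not overlap (p = 0.33, exact permutation test). Both cover the 37 genes together, so the ratios by role given above are those of peaks. Receptor sites called numbered 213 and 193 in the controls and 115 and 136 in TBX5 KO. All sites called numbered 94341 and 84280 against 51214 and 59720. Receptor peaks covered 256 and 229 kb against 110 and 139 kb. Smad sites called numbered 100 and 92 against 61 and 72, and ligand sites 57 and 47 against 46 and 62. Latent binding protein sites numbered 78 and 65 against 54 and 62, and antagonist sites 10 and 8 against 4 and 7. As shares of all sites called, Smad, ligand and latent binding protein sites were higher in both TBX5 KO libraries than in both controls. The shares of receptor and antagonist sites overlapped between the groups.

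Strength at the 203 sites called in all 4 libraries was compared after dividing each library's pileup over background by its own median over such sites genome-wide. Without that division, both TBX5 KO libraries lay below both controls at 173 of the 203 (85.2%), against 88.7% of such sites over all genes, and the median log2 difference was -0.51, against -0.64. After division it was 0.15, against 0.02. Both TBX5 KO values then lay above both controls at 97 sites (47.8%), against 31.1% over all genes, and below at 34 (16.7%), against 27.6%. Weak sites enter this set only if they passed the threshold in TBX5 KO, which lifts their values there. With the shares of all genes at the same control rank, 82.8 would be above and 41.0 below. By role, sites above numbered 19 of 31 in ligands (12.3 expected), 35 of 85 in receptors (34.8), 23 of 49 in Smads (18.1), 2 of 3 in antagonists (1.86) and 18 of 35 in latent binding proteins (15.7).

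At 4 sites, pileup over background was higher in both TBX5 KO libraries than in both controls without division by the median; the pileups themselves are given here. They were 1.97% of the 203, against 0.576% (176 of 30563) over all genes. These shares are not matched for control rank, whose median over such sites was 69.9 here and 78.9 over all genes. The limit on weak sites given above applies here too. At Bmp4, chr14:46380276-46381955, pileups of 31 and 26 in the controls stood against 33 and 47. At Smad6, chr9:63944015-63945384, 37 in each control stood against 43 and 60. At Tgfbr3, chr5:107199736-107201876, 36 and 38 stood against 40 and 53. The site upstream of Ltbp2, chr12:84884688-84885549, had 31 and 28 against 36 and 44. Higher TBX5 KO pileups follow from how these 4 were picked, because the background was also higher in TBX5 KO (10.7 and 13.4, against 10.1 and 10.3).

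**Figure D5:**
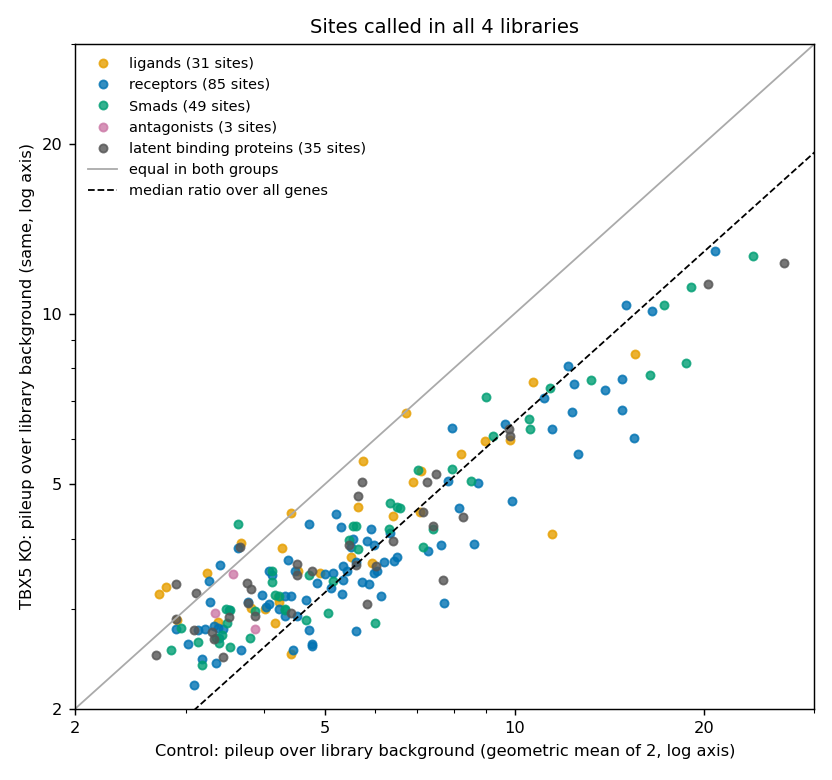
Pileup over library background at the 203 sites called in all 4 libraries, as the geometric mean of the 2 controls (x, log axis) and of the 2 TBX5 KO libraries (y, log axis), coloured by role; the solid line marks equal values and the dashed line the median ratio over all genes. Most points lie under the solid line, as 173 of 203 had both TBX5 KO values below both controls.

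The other genes of the pathway, a list of 71, had 77 control-only sites of 364 shared by the controls (21.2%, interval 17.3 to 25.6; 83.6 expected). Other ligands had 12 of 36 (33.3%), of which Bmp10, an atrial cardiomyocyte ligand, held 9 of its 11 sites, with 2.54 expected and none in all 4 libraries. Other receptors and co-receptors had 8 of 37 (21.6%), with 4 of 15 at Eng, which encodes the endothelial co-receptor endoglin. Extracellular modulators had 21 of 118 (17.8%), with 6 of 32 at the fibrillin gene Fbn1 and 6 of 13 at the integrin gene Itgb6. Intracellular regulators had 30 of 118 (25.4%), led by 3 ubiquitin ligase genes, Nedd4l (11 of 36), Smurf1 (7 of 23) and Smurf2 (6 of 9). Pathway targets had 6 of 55 (10.9%), of which Postn, the periostin gene of activated fibroblasts, had 2 of 3.

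Marker genes of the atrial cell types were set beside these values. Atrial cardiomyocyte markers had 22 control-only sites of 38 (57.9%, interval 42.2 to 72.1, with 9.99 expected). Of these, Kcnj3 had 9 of 11, Gja5 6 of 7, Myl4 6 of 14 and Myl7 1 of 4. The single sites of Nppa and Sln that the controls shared were not control-only. Fibroblast markers had 4 of 36 (11.1%), endothelial markers 9 of 53 (17.0%), and smooth muscle and pericyte markers 4 of 24 (16.7%). Epicardial markers had 1 of 6 (16.7%). Leukocyte markers had 5 of 11 (45.5%), and neuronal and glial markers 11 of 18 (61.1%; 6.34 expected), 6 of them at Rbfox3. The share at the 37 pathway genes, 15%, thus lay near those of the fibroblast, endothelial, mural cell and epicardial lists. It lay further from those of the cardiomyocyte, leukocyte, and neuronal and glial lists. The part of cell makeup in this was not tested.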

How the data were processed

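CHD4 ChIP-seq was analysed from 4 peak lists, 2 control and 2 TBX5 KO, called per library; the 4 input libraries were not analysed on their own. Per the submitters' processing notes, MACS2 and DiffBind were used with mm10; no source used here gives versions, settings or duplicate handling. The authors deposited for each peak a score, a fold enrichment ratio at the summit, −log10 of p and of q, and a summit offset; the lowest deposited −log10 q was 1.30 to 1.31 in each list. Peaks were merged at 1 bp overlap with Python 3.11.15, numpy 2.4.6, pandas 2.3.3 and scipy 1.17.1, and assigned to RefSeq genes (GRCm38.p6; all 37 symbols matched) with 10 kb on each side. Summit pileup was recovered as the whole number that gives the deposited fold and −log10 p (tolerance 0.002 in −log10 p; 100.00% of peaks), tested on simulated data. These are estimates and carry no test.

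Gene counts per library were compared by exact permutation over libraries. Shares of sites have Wilson intervals (95%). The limit for a count of 0 is 3 divided by the number of sites or promoters, which takes them as independent. Named in every library were, per role, the 2 genes with most control-only sites, the gene with most sites in all 4 libraries, the control-only site of highest rank, and every site called only in TBX5 KO. The genes, lists and rules were chosen with earlier results of these data known. Same-numbered libraries did not deviate together (r = -0.015 across 38043 sites, which are not independent replicates), so the main comparison has no replicate block. Alternatives covered the q threshold, list length, merging, gene region, each library left out, exchanged groups and the replicate block. Depth per library in reads is unknown.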

Additional observations from a re-analysis of the deposited data

How the results depend on the processing

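The control-only share at the 37 genes stayed below that over all genes in 12 of 13 alternatives, the replicate block not counted; the exception was exchanging the groups (2.70% against 1.74%). With −log10 q of at least 5 it was 21.4% (27.1% over all genes), with 31.0% for Smads and 0% for antagonists; with −log10 q of at least 3, ligands gave 0%, antagonists 37.5% (3 of 8) and latent binding proteins 8.89%. Latent binding proteins gave 14.7% with −log10 q of at least 5, 8.89% with summits within 250 bp and 8.86% with 50 kb on each side, which gave 15.2% for ligands. With lists of equal length it was 6.10% (13.5% over all genes), with 0% for ligands, 8.89% for receptors, 5.36% for Smads and 0% for antagonists. Exchanging the groups gave 2.86% for ligands, 4.30% for receptors, 2.38% for latent binding proteins and 0% for Smads and antagonists. The gene body alone, or sites at no other gene, gave 0% for antagonists. Leaving out 1 library, where a single list then stands for its group, gave 21.8% (without TBX5 KO 1) to 34.6% (without control 2), with ligands 7.89% to 18.6%, receptors 29.6% to 42.1%, Smads 17.1% to 28.7%, antagonists 12.5% to 50% and latent binding proteins 15.7% to 34.2%; the higher values follow from asking for fewer lists to agree. Sites called only in TBX5 KO numbered 2 with −log10 q of at least 5, 23 with equal lists, 44 with summits within 250 bp, 48 with exchanged groups, and 12 to 44 with 1 library left out. The difference in peaks per 1000 was -1.20 with exchanged groups and 1.10 to 1.3 with 1 library left out. The median log2 relative pileup was -0.51 when not divided by the library median and 0.14 to 0.16 with 1 library left out.

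With the replicate block, 42.3% of a control library's sites lacked a peak in the same-numbered TBX5 KO library (48.7% for replicate 1 and 36.0% for replicate 2), against 47.9% over all genes (53.0% and 42.9%), and the difference per 1000 peaks was 1.20 (exact sign-flip permutation p = 0.5, the smallest that 2 pairs allow). The labels share only a number, so this pairing has no stated basis. With 2 libraries a group, no comparison could pass a threshold of 0.05, and a site missing from a shallower list is not shown to be unbound.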
